A study of Mus musculus with 6 samples.

Results

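The chaperones and endoplasmic reticulum (ER) stress genes described here are heat shock proteins and their transcription factors, J-domain cochaperones, protein disulfide isomerases, and the sensors, transcription factors and targets of the unfolded protein response (UPR). They were chosen by gene symbol, and 107 of the 23420 genes with a row in the deposited table belong to them. Uteri came from C57BL/6J females aged 8 weeks that had mated with vasectomized males and were taken at PPD 4.5, the pseudopregnant day on which the uterus is ready for an embryo. The control genotype was *Foxo1f/f*, with both *Foxo1* alleles floxed at the second coding exon, and the knockout genotype was PgrCre/+ *Foxo1f/f*, called *Foxo1d/d*. Each genotype had 3 libraries and each library was made from a pool of 2 mice. Cre in this model is driven by the *Pgr* locus, so that *Foxo1* is removed in cells that express PGR, those of the pituitary and of ovarian granulosa included, and the control mice carry no Cre. The question addressed by the comparison is which uterine transcripts differ when *Foxo1* is absent from these cells.

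The values are the authors' mean raw counts per genotype over 3 libraries, and the means sum to 26125014 counts for the controls and 27257963 for the knockout. Single libraries have no values of their own here, so no spread between pools stands beside any value and no test between genotypes was run. Differences are given as the log2 ratio of the scaled mean counts, *Foxo1d/d* over *Foxo1f/f*, with a 95% Wilson interval from the summed counts that covers counting error only and follows each ratio in brackets. A difference larger than that interval may still lie within the variation between pools of mice. A gene entered the summaries when it averaged 10 or more counts across the genotypes, and 99 of the 107 genes did; these are called measured. The 8 that did not were *Ern2*, *Dnajb7*, *Dnajb8*, *Dnajc22*, *Hsf3*, *Hsf5*, *Hspb3* and *Hspb9*. Genes that averaged 1000 or more counts are called abundant. *Foxo1* itself averaged 3941 counts in control uteri and 1456 in knockout uteri, 2.82-fold lower, with a counting interval of -1.55 to -1.45 on the log2 scale. The genotype labels and the counts of the deleted gene therefore go together. Whole uterus also holds cells without PGR, in which Cre is not made.

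Proteins that enter the secretory pathway fold in the ER lumen, where HSPA5 (BiP), HSP90B1 (GRP94), the lectin chaperones calnexin and calreticulin, and the disulfide isomerases assist them. When unfolded proteins accumulate, the membrane sensors IRE1 (*Ern1*), PERK (*Eif2ak3*) and ATF6 start the UPR. IRE1 splices the *Xbp1* mRNA, PERK phosphorylates eIF2 alpha and so favours translation of *Atf4*, and ATF6 is cleaved to release a transcription factor. Misfolded proteins are returned to the cytosol for degradation (ERAD), and in the cytosol and the mitochondria the heat shock proteins do the corresponding work, with expression driven by heat shock factors. In the uterus at the time of implantation the glands secrete large amounts of protein and the stroma lays down collagen, both of which pass through the ER.

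As a group these genes lay close to equal levels in both genotypes. Among the 99 measured genes the median log2 ratio was -0.0097, and the median absolute log2 ratio was 0.13, against 0.025 and 0.14 over all 15696 measured genes. Log2 ratios within 1.2-fold of equality, in either direction, were found for 81 of the 99 (81.8%) and for 72.5% of all genes. At least 1.5-fold higher in *Foxo1d/d* was 1 of the 99, beside 5.43% of all genes, and at least 1.5-fold lower were 2, beside 3.51% of all genes. The 3 genes were *Dnajb3*, which was higher, and *Trib3* and *Pdia2*, which were lower.

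**Figure D1:**
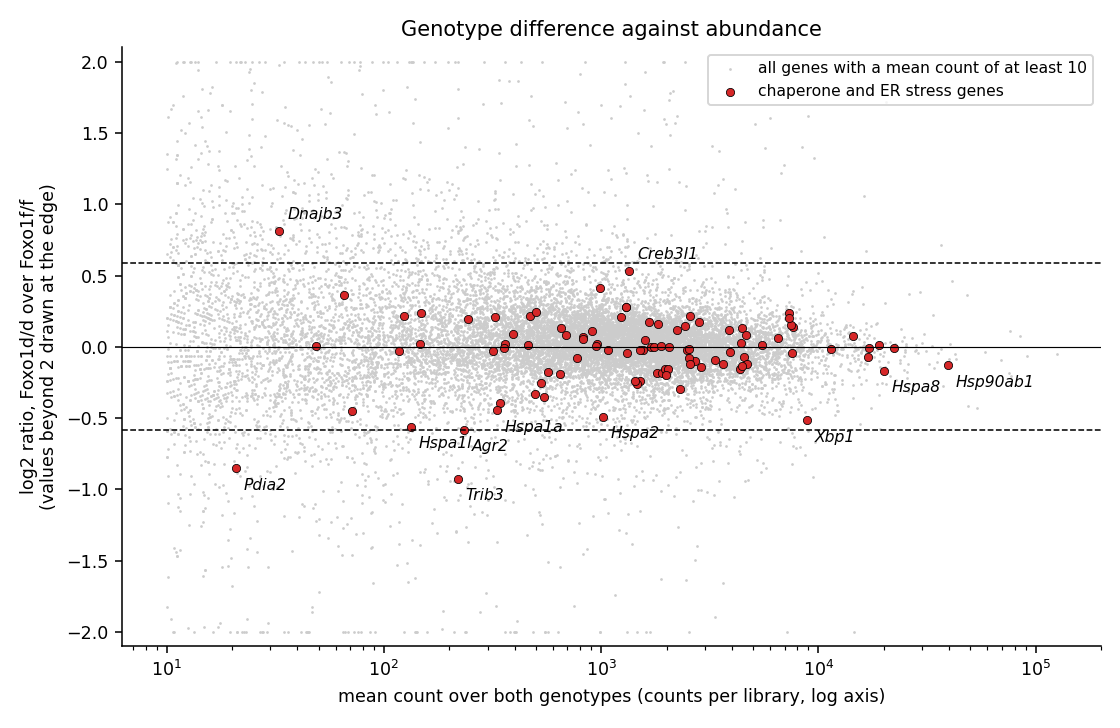
Mean count over both genotypes (log axis) against the log2 ratio (*Foxo1d/d* over *Foxo1f/f*) for the 15696 measured genes (grey) and the 99 measured chaperone and ER stress genes (red); dashed lines mark 1.5-fold. The abundant red genes lie between the dashed lines, *Xbp1* and *Creb3l1* closest to them, and the 3 red points outside are far to the left of *Xbp1*.

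Abundance matters to this comparison, because many chaperones are abundant and abundant genes spread less. Of these genes 62 were abundant and 0 of the 62 lay past 1.5-fold, while 1.75% of all 7103 abundant genes were at least 1.5-fold higher and 1.42% at least 1.5-fold lower. Their median absolute log2 ratio was 0.12, against 0.11 for all 7103. Of the 99 genes 46 had a log2 ratio above 0 and 53 below it, while 55.1% of all genes lay above 0. With ratios centred on the median gene or scaled by a trimmed mean, 36 lay above 0 and 63 below, beside 50% and 49.6% of all genes above 0 with these scalings. Of the 62 abundant ones 25 lay above 0 and 37 below, beside 53.1% of all abundant genes above 0. The counting interval lay above 0 for 30 of the 99 genes, beside 36.7% of all measured genes, and below 0 for 38, beside 27.3%. Of the 62 abundant ones it lay above 0 for 19, beside 40.4% of all abundant genes, and below 0 for 26, beside 35.1%. At this depth even small ratios exceed counting error, and how they compare with differences between mice was not measured here. In whole uterus, fewer cells that express a gene and less of its RNA per cell cannot be told apart.

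The UPR sensors differed little between genotypes. *Ern1* averaged 2043 counts in the controls and 1911 in the knockout, for a log2 ratio of -0.16 (-0.21 to -0.11). *Eif2ak3*, which encodes PERK, gave -0.020 (-0.091 to 0.050), and *Atf6* gave -0.025 (-0.071 to 0.021). Both of those intervals hold 0. *Atf6b*, an ATF6 paralog, was slightly higher in *Foxo1d/d*, at 0.14 (0.098 to 0.19). *Ern2*, the IRE1 paralog of mucus-secreting epithelia such as the gut, averaged 0.333 counts in the controls and was listed at 0 in the knockout, too few to compare. Over the 4 measured sensors the summed level was 299 CPM (counts scaled to the same total in each genotype) in control and 298 in knockout uteri.

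The group of UPR transcription factors and effectors, in which the *Creb3l* genes were included, varied most among the groups of ER genes. *Xbp1*, at chr11:5520641-5525993 of GRCm38.p6, averaged 10270 counts in control uteri and 7502 in knockout uteri. That is 1.43-fold lower, at log2 -0.51 (-0.54 to -0.49), and the transcript went from 393 to 275 CPM. Of the 7103 abundant genes 1.83% had a ratio as low or lower. Gene counts do not separate spliced from unspliced *Xbp1*, so the count carries no reading of IRE1 activity. *Creb3l1* (chr2:91982328-92024170), which encodes the ER-bound factor OASIS of collagen-secreting cells, lay in the opposite direction, with 1076 counts in the controls and 1624 in the knockout, at 0.53 (0.47 to 0.60). A ratio as high or higher was found for 2.13% of abundant genes. Both genes lay inside the 1.5-fold limit, *Xbp1* at 1.43-fold lower and *Creb3l1* at 1.45-fold higher.

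*Trib3* (chr2:152337425-152344060), a pseudokinase gene induced by ATF4 and by CHOP, had the lowest ratio of the 99 genes. It averaged 283 counts in the controls and 155 in the knockout, 1.91-fold lower, at -0.93 (-1.09 to -0.77). Of all 15696 genes 1.63% lay as low or lower. *Ddit3*, which encodes CHOP, averaged 562 counts in controls and 493 in knockout uteri, for a ratio of -0.25 (-0.35 to -0.15). *Atf4* itself was slightly higher in *Foxo1d/d*, at 0.12 (0.078 to 0.15), so the mRNA of the factor and those of *Trib3* and *Ddit3* lay on opposite sides of 0. ATF4 is controlled largely at translation, which these counts do not measure. Among the relatives of *Creb3l1*, *Creb3l2* was lower, at -0.30 (-0.35 to -0.25), and *Creb3l4* higher, at 0.24 (0.048 to 0.43). *Creb3l3*, the liver and gut member of the family, was scarce, with 47.7 counts in controls and 50 in the knockout, and its interval of -0.32 to 0.34 does not settle its direction: the ratio turns from above to below 0 with the centred and the trimmed mean scaling. The 8 genes of this group summed to 708 CPM in control and 595 in knockout uteri, a difference carried mostly by *Xbp1*.

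The ER chaperones that the UPR induces lay near equality. *Hspa5*, the usual measure of the response, had 17079 counts in the controls and 16919 in the knockout, which gives -0.075 (-0.093 to -0.057). *Hsp90b1* gave -0.0097 (-0.025 to 0.0057), *Calr* -0.0069 (-0.025 to 0.011) and *Canx* -0.017 (-0.038 to 0.0048). These 4 genes are among the abundant ones, and their counting intervals are narrow. Among the 14 lumenal chaperones and cochaperones 12 lay below 0 and 2 above, and the median was -0.078. Below 0 were 44.9% of all genes and 46.9% of all abundant genes. The 2 above 0 stayed there with each of the 3 other scalings, which lower every ratio and so could not lift the 12. All 14 lay within 1.2-fold. The lowest were *Dnajb9*, a J protein that acts on IRE1, at -0.26 (-0.32 to -0.20), *Creld2* at -0.24 (-0.30 to -0.18) and *Sdf2l1*, a partner of HSPA5, at -0.19 (-0.28 to -0.099). *Dnajc3*, an inhibitor of the PERK branch, followed at -0.16 (-0.19 to -0.12). *Hyou1*, the nucleotide exchange factor of HSPA5, was at -0.12 and *Manf*, a secreted protein of the stressed ER, at -0.080. The 2 genes above 0 were *Dnajb11* at 0.12 (0.069 to 0.17) and *Dnajc10*, an ER reductase, at 0.085 (0.051 to 0.12). Summed over the 14 genes the level was 3584 CPM in control and 3483 in knockout uteri, a difference of -2.83%.

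The promoters of several of these chaperones carry the ER stress element, the binding sequence of ATF6 with NF-Y through which the UPR is known to induce them. The 4 promoters printed here, 3 with this element and that of *Herpud1* with a second form, show both forms and were chosen after the values were seen. RefSeq promoters on GRCm38.p6, 300 bases around each annotated start, were found for 87 of the 107 genes, with 107 promoters in all. The element, CCAAT and CCACG with 9 bases between them, searched on both strands, was in 8 of those promoters (7.48%) and in 39 of all 32851 promoters (0.119%). The 8 genes are *Calr*, *Canx*, *Creld2*, *Dnajc3*, *Hsp90b1*, *Hspa5*, *Pdia6* and *Syvn1*. A second form, ATTGG and CCACG with 1 base between them, was in the promoters of *Herpud1* and *Dnajb11* and in 12 of all promoters (0.0365%). Capitals mark the matches to either form, which in the *Creld2* promoter and at the second match of *Hsp90b1* are on the opposite strand, and, in *Herpud1*, also a match on the opposite strand to TGATGNAA, the core of the C/EBP-ATF response element.
Hspa5 promoter, chr2:34771840-34772139, plus strand: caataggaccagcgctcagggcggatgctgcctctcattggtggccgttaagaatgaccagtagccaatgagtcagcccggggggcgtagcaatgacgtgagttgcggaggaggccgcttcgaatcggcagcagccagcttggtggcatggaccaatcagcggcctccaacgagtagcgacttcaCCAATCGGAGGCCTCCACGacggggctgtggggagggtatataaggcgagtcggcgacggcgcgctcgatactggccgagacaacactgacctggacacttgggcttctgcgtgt
Hsp90b1 promoter, chr10:86705395-86705694, minus strand: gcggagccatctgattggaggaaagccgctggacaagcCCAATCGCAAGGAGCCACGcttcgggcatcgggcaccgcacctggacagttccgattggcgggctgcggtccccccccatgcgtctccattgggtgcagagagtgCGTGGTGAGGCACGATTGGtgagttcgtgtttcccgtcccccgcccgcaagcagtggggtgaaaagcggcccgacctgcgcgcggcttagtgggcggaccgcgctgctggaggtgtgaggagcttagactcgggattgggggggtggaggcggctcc
Creld2 promoter, chr15:88819396-88819695, plus strand: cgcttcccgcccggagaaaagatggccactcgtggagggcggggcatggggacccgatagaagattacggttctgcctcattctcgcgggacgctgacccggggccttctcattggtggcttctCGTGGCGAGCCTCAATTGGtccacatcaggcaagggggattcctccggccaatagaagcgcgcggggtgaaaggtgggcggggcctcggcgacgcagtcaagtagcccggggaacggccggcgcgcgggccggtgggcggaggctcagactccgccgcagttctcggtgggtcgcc
Herpud1 promoter, chr8:94386179-94386478, plus strand: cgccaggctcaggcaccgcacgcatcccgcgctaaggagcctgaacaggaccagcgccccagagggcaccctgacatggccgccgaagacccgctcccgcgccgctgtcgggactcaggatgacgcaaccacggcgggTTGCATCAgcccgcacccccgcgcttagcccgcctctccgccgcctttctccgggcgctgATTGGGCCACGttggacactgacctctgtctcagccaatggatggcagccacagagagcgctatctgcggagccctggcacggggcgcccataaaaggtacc
The 8 genes with the first form had log2 ratios below 0, where 44.9% of all measured genes lay. Their median was -0.061 and they ranged from -0.24 for *Creld2* to -0.0069 for *Calr*. The 3 other scalings lower every ratio, so they could not move these genes above 0. The counting intervals of *Calr*, *Canx* and *Hsp90b1* hold 0. Over all 22 measured genes with the element, the 8 included, 16 lay below 0 and 6 above, with a median of -0.064. The genes with the second form split, *Herpud1* at -0.15 and *Dnajb11* at 0.12, and over all 9 measured genes with that form 6 lay above 0 and 3 below, with a median of 0.10. A match describes letters in the window and not a bound site.

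The UPR element core TGACGTGG, whose reverse complement begins with the letters CCACG that end the ER stress element, was in 1 of the 107 promoters (0.935%), that of *Dnajc25*, against 0.676% of all promoters. *Dnajc25* lay at 0.021 (-0.10 to 0.14). The forkhead core GTAAACA was in 3 promoters (2.80%), those of *Dnajb12*, *Dnajc10* and *Dnajc6*, against 3.65% of all. These 3 genes had log2 ratios of 0.067, 0.085 and 0.37 in that order, and the interval of *Dnajb12* holds 0. Over all 386 measured genes with the forkhead core 171 lay above 0 and 215 below, with a median of -0.027. The C/EBP-ATF core was in 3 promoters as well, those of *Herpud1*, *Hspa14* and *Trib3*, against 3.97% of all promoters. The *Trib3* promoter is printed because its gene had the lowest ratio, and its match, in capitals, lies on the opposite strand just downstream of the annotated start.
Trib3 promoter, chr2:152344011-152344310, minus strand: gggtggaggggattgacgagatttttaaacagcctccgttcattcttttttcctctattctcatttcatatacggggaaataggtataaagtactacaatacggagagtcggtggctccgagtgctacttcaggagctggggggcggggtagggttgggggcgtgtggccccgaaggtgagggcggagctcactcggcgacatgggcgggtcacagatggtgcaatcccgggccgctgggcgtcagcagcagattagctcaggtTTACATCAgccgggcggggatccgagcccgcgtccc
The members with this core had ratios on both sides of 0, *Trib3* at -0.93, *Herpud1* at -0.15 and *Hspa14* at 0.28, and over all 352 measured genes with it 189 lay above 0 and 163 below.

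Of the 7 disulfide isomerases 3 lay above 0 and 4 below, and with the centred or the trimmed mean scaling 1 above and 6 below. Over all genes 55.1% lay above 0, or 50% and 49.6% with these scalings. *P4hb*, which encodes PDI itself, averaged 18448 counts in controls and 19409 in knockout uteri, at 0.012 (-0.0048 to 0.029). *Pdia3*, the isomerase that works with calnexin and calreticulin, gave 0.072 (0.053 to 0.092), *Pdia4* 0.015 (-0.016 to 0.046) and *Pdia6* -0.047 (-0.073 to -0.020). The ratios of *P4hb* and *Pdia4* turn from above to below 0 when centred on the median gene or scaled by a trimmed mean. *Pdia5* was lower, at -0.24 (-0.30 to -0.18). *Agr2*, an isomerase of mucin-producing epithelia, had 277 counts in the controls and 193 in the knockout, for a ratio of -0.58 (-0.74 to -0.43), which sits just inside the 1.5-fold limit. It was past the limit with the centred ratios, with the trimmed mean and with totals that leave out the 10 most abundant genes. *Pdia2*, an isomerase best known from the pancreas, had few counts, 26.7 and 15, which gives -0.85 (-1.42 to -0.37). The 7 isomerases summed to 1795 CPM in control and 1808 in knockout uteri.

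Genes of ERAD were slightly lower in *Foxo1d/d*. Of the 6 measured, 5 lay below 0, beside 44.9% of all genes, and the median was -0.13. *Edem3* lay at 0.0005, below 0 with the 3 other scalings. *Herpud1*, which organizes the retrotranslocation complex, gave -0.15 (-0.20 to -0.10), and *Sel1l*, the adaptor of that complex, -0.14 (-0.17 to -0.10). *Syvn1*, which encodes the ubiquitin ligase HRD1, gave -0.12 (-0.17 to -0.074). The mannosidase-like genes *Edem1* and *Edem2*, whose products send glycoproteins to degradation, were at -0.10 and -0.18. The summed level of the 6 genes was 613 CPM in control and 566 in knockout uteri, a difference of -7.79%.

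**Figure D2:**
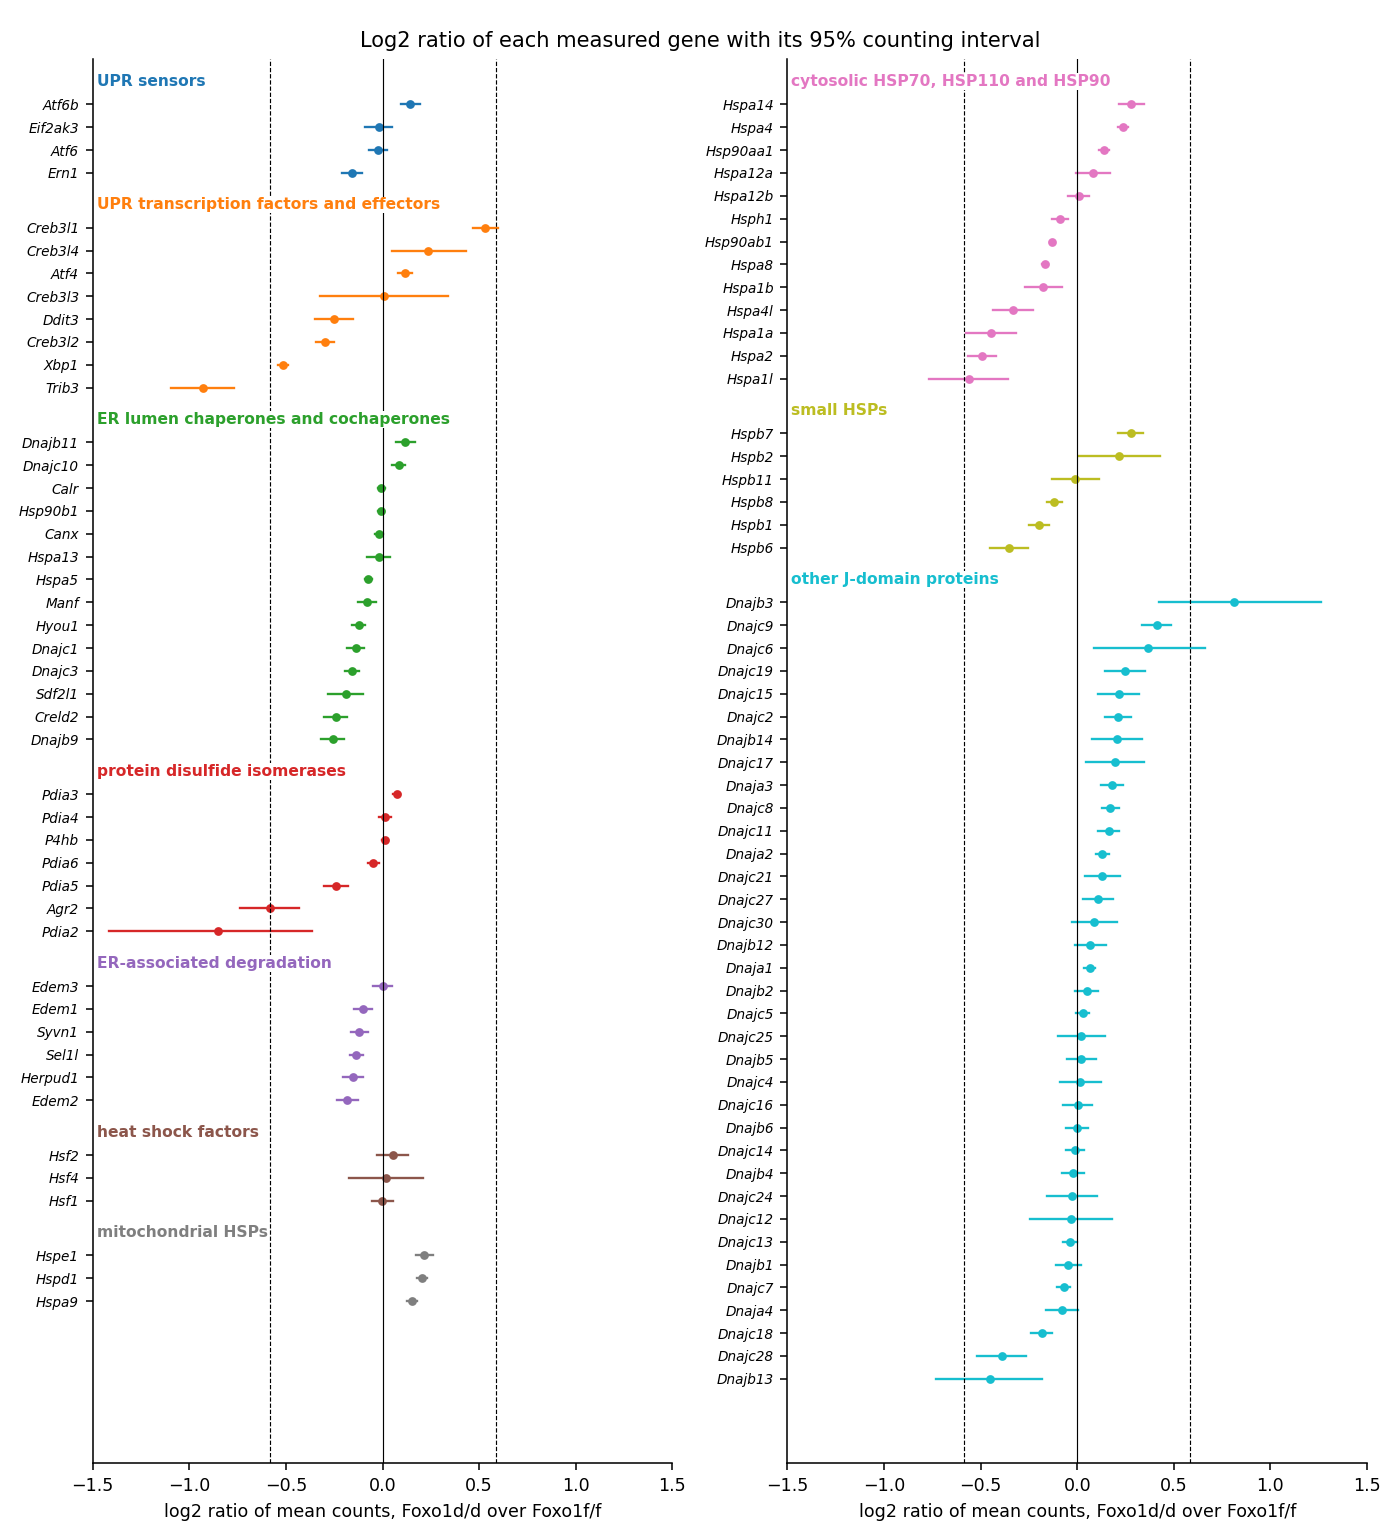
Log2 ratio (*Foxo1d/d* over *Foxo1f/f*) (points) with the 95% counting interval (lines) for each of the 99 measured genes, grouped by role; dashed lines mark 1.5-fold. The chaperones of the ER lumen lie between -0.26 and 0.12, and among the genes outside that range are *Trib3*, *Pdia2*, *Agr2* and *Xbp1* below it and *Dnajb3* and *Creb3l1* above it.

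In the cytosol the chaperones lay on both sides of equality. *Hsp90ab1*, the constitutive HSP90, averaged 40345 counts in controls and 38470 in knockout uteri, at -0.13 (-0.14 to -0.12). *Hspa8*, the constitutive HSP70, had 20752 and 19291, for a ratio of -0.17 (-0.18 to -0.15). Other members lay above 0: *Hsp90aa1*, the inducible HSP90, was at 0.14 (0.11 to 0.16) and *Hspa4*, an HSP110-type exchange factor, at 0.24 (0.21 to 0.26). *Hsph1*, which encodes HSP110, was at -0.090. *Hspa14*, an HSP70 of the ribosome, was the highest of the 13, at 0.28 (0.22 to 0.35). The 13 genes summed to 3238 CPM in control and 3068 in knockout uteri, a difference of -5.26%. Of them 8 lay below 0, beside 44.9% of all genes, or 9 with the centred or the trimmed mean scaling. With these scalings 50% and 49.6% of all genes lay above 0.

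The stress-inducible HSP70 genes were lower in *Foxo1d/d*, at low counts. *Hspa1a* had 375 counts in the controls and 287 in the knockout, which gives -0.45 (-0.58 to -0.32). *Hspa1b* had 591 and 546, at -0.18 (-0.27 to -0.079). *Hspa1l*, best known from the testis, had 157 and 111, at -0.56 (-0.77 to -0.36), and passed 1.5-fold with the trimmed mean scaling. The 3 genes lie side by side on chromosome 17, with 546 bases between *Hspa1a* and *Hspa1l* and 10120 between *Hspa1b* and *Hspa1a*. *Hspa1a* and *Hspa1b* encode nearly the same sequence, so the split of reads between them is uncertain. Heat and other stress induce both genes. *Hspa2*, also known from the testis, was lower at a higher level, with 1167 and 865 counts, for a ratio of -0.49 (-0.57 to -0.42), and 2.04% of abundant genes lay as low or lower. *Hspa4l* gave -0.33 (-0.44 to -0.23).

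The heat shock factors did not differ beyond counting error. *Hsf1*, the main regulator of the heat shock response, averaged 1716 counts in controls and 1788 in knockout uteri, which gives -0.0014 (-0.057 to 0.054). *Hsf2* gave 0.052 (-0.028 to 0.13) and *Hsf4* 0.017 (-0.17 to 0.21), and the intervals of all 3 hold 0. Their median of 0.017 turns below 0 with the centred and the trimmed mean scaling. Of the 6 small heat shock proteins measured 2 lay above 0 and 4 below, beside 55.1% and 44.9% of all genes. *Hspb1* (HSP27) was lower at -0.20 (-0.25 to -0.15), *Hspb6*, a smooth muscle protein, at -0.35 (-0.45 to -0.25) and *Hspb8* at -0.12. *Hspb11* was at -0.010 (-0.13 to 0.11). *Hspb7*, known from heart muscle, was higher, at 0.28 (0.21 to 0.34), as was *Hspb2*, at 0.22 (0.010 to 0.43). The smooth muscle markers *Acta2*, *Actg2*, *Cnn1*, *Des*, *Myh11* and *Tagln* had log2 ratios from -0.43 to -0.15, and all 6 were lower in *Foxo1d/d*. Their part in the *Hspb6* and *Hspb1* values was not tested.

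The mitochondrial chaperones were all 3 higher in *Foxo1d/d*, beside 55.1% of all genes, and stayed so with each of the 3 other scalings. *Hspd1* (HSP60) had 6683 counts in the controls and 8027 in the knockout, at 0.20 (0.18 to 0.23). *Hspe1*, its cochaperonin HSP10, had 2322 and 2816, for a ratio of 0.22 (0.17 to 0.26). *Hspa9*, the mitochondrial HSP70 mortalin, gave 0.15 (0.13 to 0.18). The 3 genes together went from 610 CPM in control to 692 in knockout uteri, a difference of 13.6%, all within 1.2-fold. *Hspd1* and *Hspe1* lie side by side on chromosome 1, transcribed in opposite directions, and their annotated starts overlap by 96 bases, from which reads cannot be told apart without strand. The *Hspe1* promoter is printed because it lies where this pair meets, inside the annotated span of *Hspd1*. It shares 285 bases with a promoter of *Hspd1* on the other strand. Capitals mark 2 overlapping matches to the heat shock unit, GAA, TTC and GAA or TTC, GAA and TTC with 2 bases between neighbours.
Hspe1 promoter, chr1:55087898-55088197, plus strand: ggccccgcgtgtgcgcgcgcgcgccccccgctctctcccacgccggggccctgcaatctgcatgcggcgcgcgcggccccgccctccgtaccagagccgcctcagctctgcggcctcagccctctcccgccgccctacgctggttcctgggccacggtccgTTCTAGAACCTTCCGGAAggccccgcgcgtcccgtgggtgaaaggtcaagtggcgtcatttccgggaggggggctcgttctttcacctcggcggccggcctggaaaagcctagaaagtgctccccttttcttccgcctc
That unit was in 7 of the 107 promoters (6.54%) and in 198 of all 32851 (0.603%). The 5 genes that hold it were *Hspd1*, *Hspe1*, *Hsph1*, *Dnajb6* and *Creb3l3*, and their log2 ratios ran from -0.090 for *Hsph1* to 0.22 for *Hspe1*. Over all 67 measured genes with the unit 30 lay above 0 and 37 below.

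The remaining J-domain genes encode cochaperones that bring substrates to HSP70 proteins in the cytosol, nucleus and mitochondria. Of the 35 measured, 23 lay above 0 and 12 below, with a median of 0.048, and with the centred or the trimmed mean scaling the split was 19 and 16. Over all genes 55.1% lay above 0, or 50% and 49.6% with these scalings. The common cytosolic members were near equality, *Dnaja1* at 0.065 (0.037 to 0.094) and *Dnajb1* at -0.046 (-0.11 to 0.018). *Dnajc9*, a histone cochaperone, was at 0.41 (0.34 to 0.49), the highest among those with mean counts of at least 100. *Dnajb3*, a gene best known from the testis, was the only one past 1.5-fold, with 23 counts in controls and 43 in the knockout, which gives 0.81 (0.42 to 1.26). Its interval is wide because the counts are few. At the low end *Dnajb13*, a gene of motile cilia, had 80.7 and 61.3 counts, at -0.45 (-0.73 to -0.18), and *Dnajc28* was at -0.39 (-0.52 to -0.27).

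Compared per kilobase of exon, the order of the levels was nearly the same in both genotypes. In *Foxo1f/f* uteri *Hsp90ab1* was highest of these genes, at 613 CPM per kilobase, and it was 560.1 in *Foxo1d/d*. *Hspa8* followed at 332, *Hsp90b1* at 297 and *Calr* at 293. *Hsp90b1* and *Calr* lie so close that this length estimate does not order them. *P4hb* at 247, *Pdia3* at 190.0 and *Hspa5* at 174 came next, and *Xbp1* was eighth at 165. In *Foxo1d/d* the *Xbp1* level was 115, below *Pdia6* at 128, *Hspe1* at 133 and *Hspd1* at 122, all of which it exceeded in the controls. The sensors were scarcer than these in the controls, *Atf6b* at 33.4, *Atf6* at 13.0, *Ern1* at 9.59 and *Eif2ak3* at 8.41. *Trib3* lay at 5.34 in the controls and 2.80 in the knockout. Levels per length use the union of annotated exons, and a gene whose uterine transcripts use fewer exons is underestimated.

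**Figure D3:**
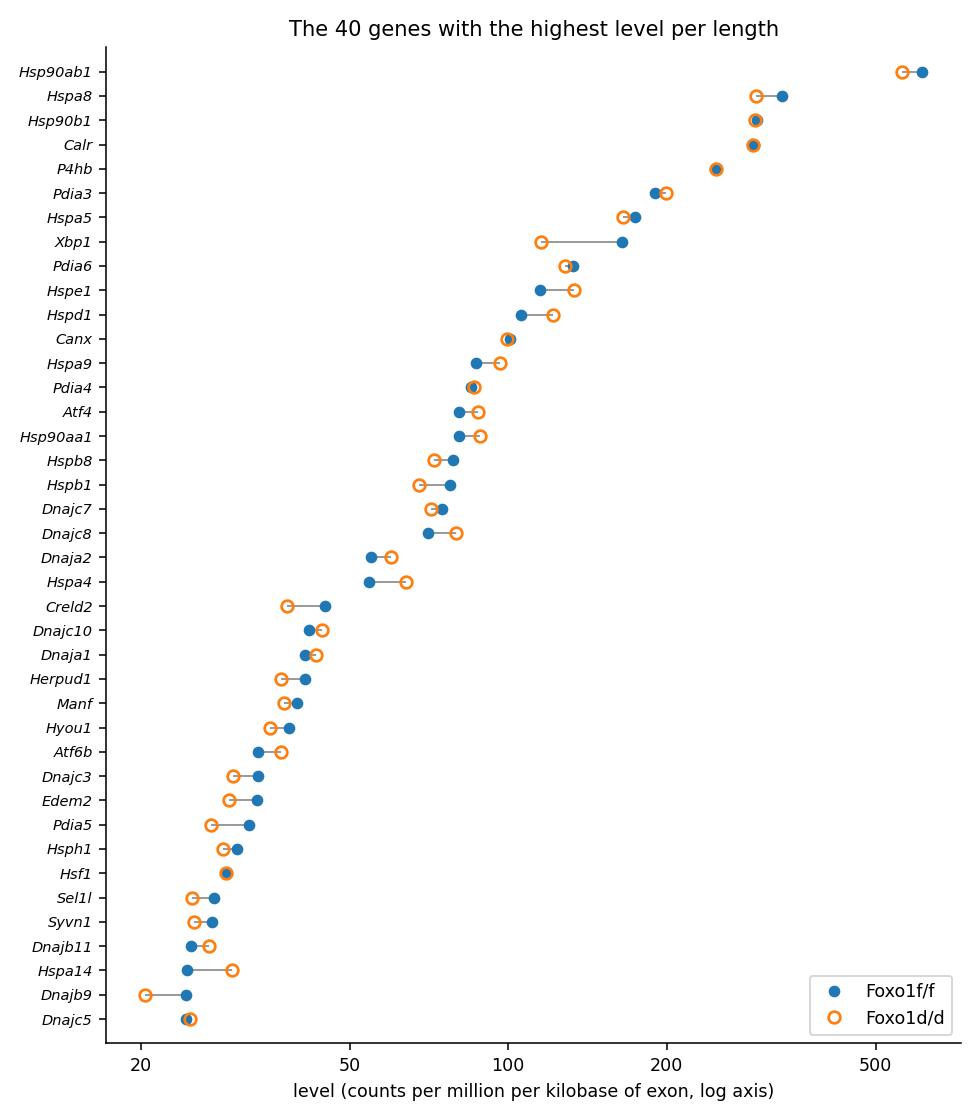
Mean level in CPM per kilobase of exon (log axis) of the 40 genes with the highest level, in *Foxo1f/f* (filled) and *Foxo1d/d* (open). Most pairs of points nearly coincide; *Xbp1* moves from 165 to 115 and crosses *Pdia6*, *Hspe1* and *Hspd1*.

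Genes that work with these chaperones were described from lists of related genes. Of 25 other ERAD and translocon genes, 19 lay above 0 and 6 below, with a median of 0.05, or 16 and 9 with the centred or the trimmed mean scaling. Over all genes 55.1% lay above 0, or 50% and 49.6% with these scalings. In this list 0 genes were at least 1.5-fold higher, beside 5.43% of all genes, and 1 gene was at least 1.5-fold lower, beside 3.51%. That gene was *Derl3*, which encodes a derlin induced through XBP1 and found in secretory cells, with 163 counts in controls and 72 in the knockout, 2.37-fold lower, for a ratio of -1.23 (-1.47 to -1.01). Its paralogs *Derl1* and *Derl2* were at -0.015 and -0.010. *Xbp1*, *Derl3* and *Agr2*, which come from different groups, were lower in *Foxo1d/d*, and a link between them was not tested. The translocon genes *Sec61a1* and *Sec61b* were at 0.031 and 0.23.

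The 36 other ER folding and glycan processing genes had a median of 0.03, which was 0.0053 with the centred and 0.0038 with the trimmed mean scaling (18 above 0 and 18 below). Past 1.5-fold were 0 of them, beside 5.43% of all genes on the higher and 3.51% on the lower side. The collagen chaperone *Serpinh1*, the most abundant per kilobase in the controls, averaged 23568 counts in controls and 25741 in knockout uteri, which gives 0.066 (0.051 to 0.081). The upper end of the list, named after its values were seen, held *Kdelr3*, a retrieval receptor for ER proteins, at 0.49 (0.43 to 0.55) and *Fkbp14*, a prolyl isomerase of collagen folding, at 0.39 (0.33 to 0.44). At the lower end was *Sil1*, an exchange factor of HSPA5, at -0.14. The stromal collagen genes *Col1a1* and *Col3a1* were at 0.11 and -0.047.

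The list of the integrated stress response holds eIF2 alpha kinases, which act upstream of ATF4, and genes that ATF4 induces. Of 29 measured, 20 lay above 0 and 9 below, with a median of 0.12, where 55.1% of all genes lay above 0. The split was also 20 and 9 with the trimmed mean scaling, where 49.6% of all genes lay above 0. In this list 3 were at least 1.5-fold higher, beside 5.43% of all genes, and 0 at least 1.5-fold lower, beside 3.51%. The list leaves out *Trib3*, which ATF4 also induces, and *Ddit3*, because they are counted among the chaperone and ER stress genes. Both were lower, at -0.93 and -0.25, and *Trib3* was past 1.5-fold, so these counts depend on how the list was drawn. *Mthfd2*, a mitochondrial folate enzyme, had 310 counts in the controls and 681 in the knockout, at 1.07 (0.96 to 1.19). *Slc7a11*, the cystine transporter, had 278 and 551, for a ratio of 0.92 (0.80 to 1.04), and the scarce *Gdf15*, a secreted stress factor, 9 and 16, at 0.70 (0.095 to 1.44). Serine synthesis genes *Psat1* and *Phgdh*, also seen first in the values, were at 0.55 and 0.48, and the transfer RNA synthetase gene *Aars* at 0.47. The stress effectors *Nupr1* and *Chac1* were at -0.39 and -0.27 (-0.67 to 0.12), while the stress genes *Atf5* and *Sesn2* were at 0.061 and 0.17. Synthetase genes lay on both sides of 0, with *Wars* at -0.17.

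Cytosolic cochaperones and chaperonin subunits lay within 1.5-fold, while 5.43% of all genes were at least 1.5-fold higher and 3.51% at least 1.5-fold lower. The 29 genes had a median of 0.026, with 20 above 0 and 9 below, and with the centred or the trimmed mean scaling 15 and 14. Over all genes 55.1% lay above 0, or 50% and 49.6% with these scalings. *Fkbp4*, the HSP90 cochaperone of steroid receptors, averaged 6307 counts in controls and 7761 in knockout uteri, which gives 0.24 (0.21 to 0.27), and the list ran from *Ahsa2* at -0.14 to *Bag5* at 0.33. In the 11 other mitochondrial proteostasis genes the median was 0.014, which turns below 0 with the centred and the trimmed mean scaling, and 0 were past 1.5-fold. They ran from *Grpel2* at -0.17 to *Htra2*, a protease gene, at 0.21. Between them lay *Lonp1*, the gene of the matrix protease, at 0.014, *Trap1*, the mitochondrial HSP90, at 0.059 (0.021 to 0.098), *Grpel1*, the exchange factor of HSPA9, at 0.13 and *Clpp* at 0.16.

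**Figure D4:**
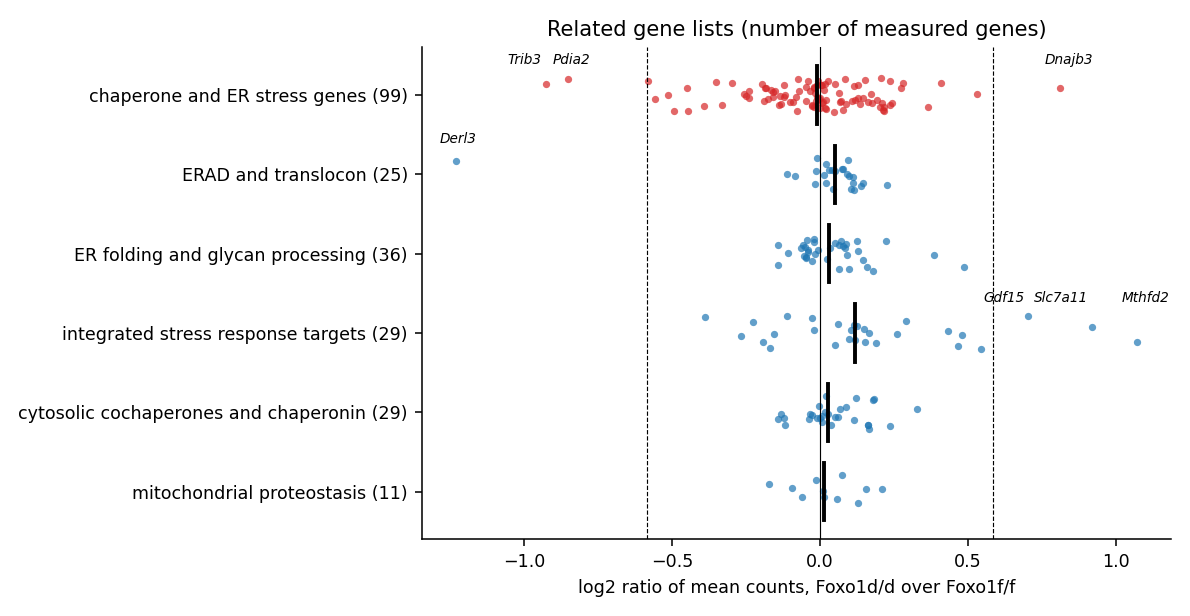
Log2 ratio (*Foxo1d/d* over *Foxo1f/f*) for the 99 measured chaperone and ER stress genes (red) and 5 lists of related genes (blue), each point 1 measured gene; black bars mark medians, dashed lines 1.5-fold, and height within a row is random. Named points lie past 1.5-fold, *Derl3* and *Trib3* on the lower side and *Mthfd2* and *Slc7a11* on the higher side.

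Cell type markers were read from the same counts, since secretory cells differ in their ER content. Defining markers of uterine epithelium, stroma and muscle were all present, with 10 of 10, 8 of 8 and 6 of 6 measured. Gland markers lay on both sides of 0. Of 7 gland genes 4 were at least 1.5-fold lower, beside 3.51% of all genes, and 1 at least 1.5-fold higher, beside 5.43%. Their summed level was 1020 CPM in control and 303 in knockout uteri. The secreted protease gene *Prss29*, the most abundant of them per kilobase in the controls, had 13746 counts in the controls and 652 in the knockout, while the gland factor *Foxa2* had 279.7 and 299.7, at 0.038 (-0.097 to 0.17). The 4 lower genes were *Prss28* at -6.56, *Spink3* at -4.70, *Prss29* at -4.46 and *Ttr* at -1.31. *Sox17* and *Lif* were higher, at 0.54 and 0.99. None of these 7 genes was at 0. Their part in the *Xbp1*, *Agr2* and *Derl3* values was not tested.

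Plasma cells also have a large ER, and of the plasma and B cell markers all 6 measured were higher in *Foxo1d/d*. At least 1.5-fold higher were 4 of them, beside 5.43% of all genes. The summed level of the 8 listed genes was 24.1 CPM in control and 86.7 in knockout uteri. Most of that sum is *Igj*, the immunoglobulin joining chain gene, which averaged 470.3 counts in controls and 2092 in knockout uteri. *Mzb1*, an ER protein gene of plasma cells, was at 0.098 (-0.18 to 0.38), an interval that holds 0. Adipocyte markers were higher too, 7 of 7 at least 1.5-fold, beside 5.43% of all genes. They went from 17 to 62.3 CPM, with *Fabp4* the most abundant per kilobase in the controls and *Cfd* in the knockout. Neither list held a gene at 0 in both genotypes, and their part in the chaperone values was not tested.

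The other lists differed less in their sums. Epithelial markers summed to 828 CPM in control and 973 in knockout uteri, with 8 of 10 above 0. Stromal markers went from 11446 to 11106 CPM and myometrial markers from 6561 to 5287. Endothelial markers went from 1321 to 1105 CPM with 5 of 5 below 0, beside 44.9% of all genes. Macrophage markers went from 471 to 566 CPM with 6 of 6 above 0, beside 55.1% of all genes. Decidual markers went from 40.7 to 61.3 CPM, with *Prl8a2* at 0 in both genotypes. Striated muscle markers were at 108 and 107 CPM, with *Myh4* at 0. The gene with the highest level per kilobase was *Cldn3* for epithelium, *Col3a1* for stroma, *Pecam1* for endothelium, *Lyz2* for macrophages, *Cebpb* for decidual cells, *Acta1* for striated muscle and *Ccdc39* for ciliated cells in both genotypes. For the myometrium it was *Tagln* in the controls and *Acta2* in the knockout. Of the ciliated cell markers 3 were measured, which summed to 15.4 and 13.7 CPM, and *Foxj1* had 12.7 and 25.3 counts while the ciliary *Dnajb13* had 80.7 and 61.3. The summed level of the 107 chaperone and ER stress genes was 13160 CPM in control and 12871 in knockout uteri, a difference of -2.20%, and the part of the marker differences in it was not tested.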

How the data were processed

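RNA of whole uterus was sequenced from 3 pools per genotype. The authors used STAR for alignment, Picard for duplicates, HTSeq for counts of RefSeq genes and edgeR for their comparison. The study's methods name mm10 and the submitters' processing notes name mm9; the values are per gene and carry no coordinates. The unit used is the authors' mean raw count per genotype, and 3 times each deposited mean is a whole number within 1e-06. The authors' deposited columns of fold change, log2 CPM, p-value and FDR were not used. Whether reads were counted by strand is not given.

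The planned test needed single libraries, so it was replaced by ratios. A pseudocount of 1 was added to each mean, means were scaled by their genotype's total, and Wilson intervals came from summed counts without the pseudocount. Folds carry no pseudocount, whereas the 1.5-fold calls use the log2 ratio with it. Levels per length used the exon union of the GENCODE basic annotation on GRCm38, found for all 107 genes. Members and lists were chosen with earlier results of these data known. Genes were named by a rule: a fixed set of chaperones and UPR genes, the members past 1.5-fold, the 10 with the highest level per length, and related genes past 1.5-fold; other genes were named after their values were seen, and the 1.2-fold band, the mean count of 1000, the second form of the ER stress element and the core TGATGNAA were also chosen then. Alternatives were another pseudocount, other scalings, count minimums and folds, and leaving out close paralogs. Protein sequences were not analysed here. The steps were tested on simulated data. Python 3.11.15, numpy 2.4.6, pandas 2.3.3, scipy 1.17.1 and matplotlib 3.10.9 were used.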

Additional observations from a re-analysis of the deposited data

How the results depend on the processing

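The median log2 ratio of the chaperone and ER stress genes stayed below 0 with every alternative run, between -0.0359 and -0.0041. The other scalings lower every ratio, so they could not lift it. The number past 1.5-fold, 3 with 1 higher and 2 lower, is small and moved with the threshold: with a fold of 5/4 it was 15 (4 higher, 11 lower), and with a fold of 2 it was 0 (0 and 0). With a mean count of at least 50 or at least 100 it was 1 (0 higher, 1 lower), with at least 1 it was 5 (3 higher, 2 lower), and with 1.5-fold asked of the nearer bound of the counting interval 1 (0 and 1), which follows from fewer or more genes passing. With the trimmed mean scaling 5 passed, 1 higher and 4 lower, since that scaling lowers each ratio slightly. Of 204 values of single genes under other scalings and a pseudocount of 0.1, *Ern2* left out because its interval has no lower bound, 187 moved by at most the half-width of the gene's counting interval and 17 by more. The values past 1.5-fold kept their sign, since the shifts were too small to change it. *Creb3l3*, *P4hb* and *Pdia4*, close to 0, turned below 0 with the centred and the trimmed mean scaling. Of 64 list medians 62 moved by at most the median half-width in the list.

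No paired analysis was possible because the values are means over the 3 libraries of a genotype; leaving out replicates and a replicate block were not run for the same reason. The intervals cover counting error and not the differences between pools of mice, so a small ratio with a narrow interval is not shown to be a genotype difference. Depth limits *Pdia2*, *Dnajb3* and the 8 genes under a mean count of 10. Reads shared by *Hspa1a* and *Hspa1b*, or from overlapping genes, were assigned by rules that the counts do not show.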
